A study of Mus musculus with 12 samples.

Results

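The genes described here encode a matrix that surrounds brain cells. They were taken by name from a list of 9: the lectican genes Vcan, Bcan, Ncan and Acan, the link protein genes Hapln1 and Hapln4, the tenascin genes Tnr and Tnc, and Ptprz1. All 9 were present among the 14801 genes of the deposited table. Expression was measured by RNA sequencing in 12 primary cultures of mouse cerebral cortex, 6 kept without triiodothyronine (T3, the active thyroid hormone) and 6 given 10 nM T3 for 24 h. All libraries are titled wild type, and the strain is not given in the sources used here. Each of 6 fetuses of gestational day 17.5 supplied 1 culture of each kind. In both groups the cells had grown for 9 days, and the B27 supplement was then withheld for 24 h before T3 was added to the treated cultures. The labels do not say which fetuses shared a dam.

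Lecticans are chondroitin sulfate proteoglycans that bind hyaluronan at one end and tenascins at the other. Link proteins lock lecticans onto hyaluronan, and tenascin-R ties several lecticans together. Around some neurons this assembly condenses into perineuronal nets, which stabilise synapses in the maturing cortex, while a looser form fills the space between cells earlier in development. Ptprz1 encodes a receptor phosphatase, and a secreted form of its outer part, phosphacan, is itself a proteoglycan of this matrix. Counts per gene do not separate these forms.

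The lectican and link protein genes sit beside each other in the genome. Vcan (chromosome 13, 89655312 to 89742509, minus strand) and Hapln1 (chromosome 13, 89539796 to 89611652, plus strand) point towards each other with 43.7 kb between their ends. Ncan (chromosome 8, 70093085 to 70120873) and Hapln4 (chromosome 8, 70083457 to 70090862) do the same with 2.22 kb between them. Acan (chromosome 7, 79053483 to 79115099) ends 2 bases from the end of Hapln3. Bcan (chromosome 3, 87987531 to 88000230) lies 21.5 kb from Hapln2, and these genes share a strand. No annotated protein-coding gene lies between the partners of any of these 4 pairs. Hapln2 is not among the genes of the table used here. Tnr lies on chromosome 1 (159523769 to 159931729), Tnc on chromosome 4 (63959785 to 64047015) and Ptprz1 on chromosome 6 (22875502 to 23052916). The coordinates are those of GENCODE on GRCm38. Transcripts of the opposite strand cover 3.44% of the Tnr exons and 2.26% of the Tnc exons, and the library kit does not mark strand, so their reads could not be separated.

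The sequences shown are the 250 bases before the RefSeq start (GRCm38.p6) of Vcan, the lectican gene that fell with T3, and of Bcan, a lectican gene that did not pass the test. They come from chr13:89742513-89742762 and chr3:88000357-88000606, are written in the direction of transcription on the minus strand and lie outside annotated exons.
Vcan: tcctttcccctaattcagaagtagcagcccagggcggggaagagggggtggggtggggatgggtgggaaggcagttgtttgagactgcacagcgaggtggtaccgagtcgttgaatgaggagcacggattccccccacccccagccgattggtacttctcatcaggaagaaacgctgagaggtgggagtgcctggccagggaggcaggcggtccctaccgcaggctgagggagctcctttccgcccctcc
Bcan: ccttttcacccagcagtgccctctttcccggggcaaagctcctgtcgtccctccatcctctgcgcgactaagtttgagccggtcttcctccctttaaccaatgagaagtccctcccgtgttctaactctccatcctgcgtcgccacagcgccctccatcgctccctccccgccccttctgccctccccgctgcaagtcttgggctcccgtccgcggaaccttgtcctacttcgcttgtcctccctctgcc
The letters AGGTCA, the half-site to which thyroid hormone receptors are known to bind, were searched on both strands, as was AGGNCA repeated in the same direction after a gap of 4 bases, which can overlap the half-site. Neither was found in these windows or in those of any of the 8 members with an entry, so no letter is in capitals. All 250 bases of the Hapln1 window lie within an annotated Hapln1 exon, so for Hapln1 the search covered transcribed sequence. The Ncan window and a Tnc window overlap their own exons by 29 and 79 bases. The half-site is present in 14.0% of the 32851 promoters of the table and the repeat in 0.213%. The windows of Vcan and Bcan hold 10 and 16 CG dinucleotides, against a median of 6 over all promoters.

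Levels are in CPM, read counts scaled to the size of the library and normalized by TMM, and ± gives the SD among 6 cultures. The libraries held 5272092 to 8136928 reads without T3 and 7460586 to 10837895 with T3, and the T3 library was the deeper of the pair in 6 of 6 mice. The labels were checked with 4 known T3 responders: Hr, Klf9, Dio3 and Shh rose in 6 of 6 mice. Their mean log2 changes over the 6 mice were 1.46 to 3.00. One library, the culture of mouse 4 without T3, differed from the rest. Summed markers of mural cells and fibroblasts reached 508.8 CPM in it against at most 224.4 in the other 11, and the heart muscle genes Myh6, Myh7 and Ttn 1213 CPM against at most 6.88. The other 5 heart muscle markers are not among the genes of the table used here. Summed cell cycle markers were also highest in that library, at 225.3 CPM against at most 130.6 in the other 11. Neuron markers were the highest sum, from 6806 to 9344 CPM over all libraries. The sums are not corrected for transcript length or for the number of genes in a list, so they do not rank cell classes. Astrocyte markers spanned 897.5 to 3528 CPM, while the 4 microglia markers in the table together held 2.64 to 8.16 CPM, and the defining microglia genes P2ry12 and Tmem119 are not among its genes.

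T3 moved 2 of the brain matrix genes, in opposite directions. Vcan, which encodes versican, a lectican of the loose matrix and of oligodendrocyte precursors, fell 1.41-fold, and its chromosomal neighbour Hapln1, which encodes a link protein, rose 1.31-fold. The other 6 genes that could be tested (Bcan, Ncan, Acan, Tnr, Tnc and Ptprz1) did not pass. Hapln4 was too low to enter the test. A gene passed where limma's adjusted p was below 0.05, with the mouse as a block and adjustment over all 13663 genes tested. By this measure 1 of 8 members rose and 1 of 8 fell, while over all genes tested 3.37% rose and 2.14% fell (5.52% in either direction). None of the 8 had ranges that did not overlap between the groups, which 1.68% of all genes tested had. The median log2 change of the 8 was 0.040, against 0.0031 over all genes. In bulk cultures fewer cells of a type and less RNA per cell cannot be told apart.

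**Figure D1:**
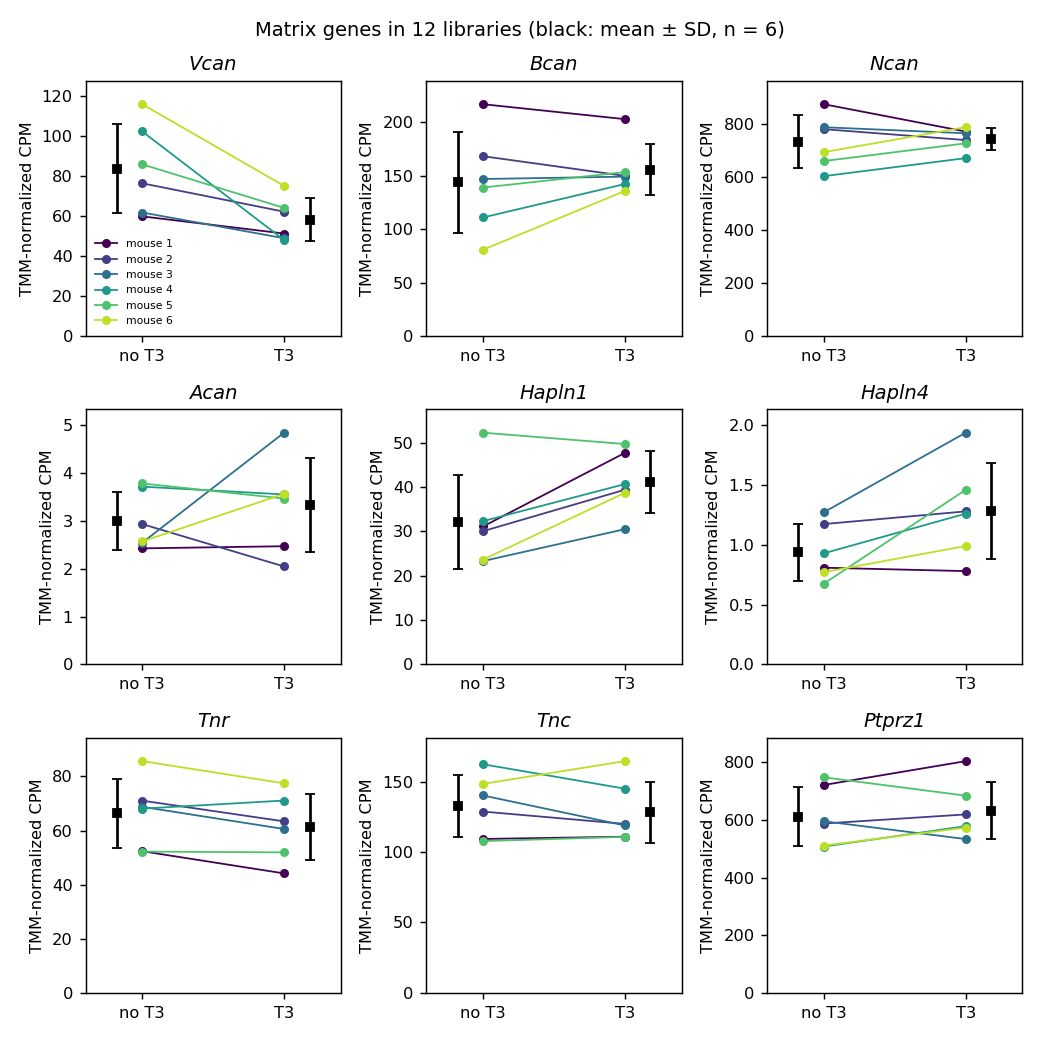
Level of each of the 9 matrix genes, in TMM-normalized CPM from 0, in the cultures without and with T3. Each line joins the cultures of 1 mouse, and black squares with bars give the mean ± SD of 6 cultures. Vcan is lower with T3 in all 6 mice and Hapln1 is higher in 5 of 6.

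Vcan (ENSMUSG00000021614) stood at 59.9 CPM at the lowest, 81.2 at the median and 116.1 at the highest without T3. With T3 the lowest was 48.1, the median 56.8 and the highest 75.2. The groups overlapped, but within each mouse the T3 culture was the lower one. The mean went from 83.8 ± 22.4 to 58.3 ± 10.7 (n = 6), a log2 change of -0.50 (SE 0.094, limma adjusted p = 0.00594). The change was smallest in mouse 1, with -0.22, and largest in mouse 4, with -1.08.

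Mouse 4 is the mouse whose culture without T3 held the heart and fibroblast transcripts. In that library Vcan was at 102.4 CPM, below the 116.1 of mouse 6, and in the T3 library of mouse 4 at 48.1, the lowest of all 12. Without mouse 4 the log2 change was -0.38 (SE 0.068, limma adjusted p = 0.00247), so the call held at a smaller size. Summed markers of mural cells and fibroblasts were lower with T3 in 5 of 6 mice, with a median of 154.8 CPM without and 113.7 with T3. In mouse 1 that sum was 224.4 CPM without and 224.2 with T3. Of the 8 tested genes of this list 1 passed, Dcn, which fell, and 7 of 8 had a log2 change below 0, with a median of -0.55. Without mouse 4 the log2 changes of Col1a1, Col3a1 and Pdgfrb were above 0, at 0.07, 0.28 and 0.42. Those of Dcn, Acta2, Tagln, Rgs5 and Col1a2 stayed below 0, at -0.38, -0.39, -0.23, -0.50 and -0.06. Summed neuron markers were also lower with T3 in 5 of 6 mice, with 1 of 9 tested genes rising and 1 falling. The summed level of oligodendrocyte precursor markers was higher with T3 in 6 of 6 mice, with a median of 407.5 CPM without and 470.9 with T3. Of 7 such markers tested 3 rose, Olig1 (log2 change 0.41), Olig2 (0.24) and Gpr17 (1.23), and none fell. Olig2 no longer passed when mouse 3, 4, 5 or 6 was left out, or with DESeq2 (adjusted p = 0.111). Astrocyte markers were also higher in sum in 6 of 6 mice, and 5 of 10 tested rose: Slc1a2, Slc4a4, Aldh1l1, Gfap and Aqp4. Of these, Aldh1l1 no longer passed when mouse 4, 5 or 6 was left out, Gfap when mouse 3, 5 or 6 was, and Aqp4 when mouse 1, 3, 4 or 6 was. The part of these cell classes in the changes of Vcan and Hapln1 was not tested.

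Hapln1 (ENSMUSG00000021613) ran from 23.3 to 52.2 CPM without T3, with a median of 30.6. With T3 it ran from 30.5 to 49.7, with a median of 40.0. The highest value of all, 52.2, was in the culture of mouse 5 without T3, and mouse 5 was also the only mouse whose T3 culture was lower, by -0.072 on the log2 scale. In the other 5 mice the log2 change was between 0.33 and 0.70. The mean went from 32.1 ± 10.6 to 41.1 ± 6.90 (n = 6), a log2 change of 0.39 (SE 0.083, limma adjusted p = 0.00622). Without mouse 5 it was 0.48 (limma adjusted p = 0.000411).

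Both calls rest on the comparison within mice. Without the mouse in the model the adjusted p was 0.261 for Vcan and 0.457 for Hapln1, and in limma without a variance trend and robust estimation 0.0699 and 0.0934. Leaving out any one mouse kept both calls, with adjusted p up to 0.045 for Vcan and 0.0328 for Hapln1.

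**Figure D2:**
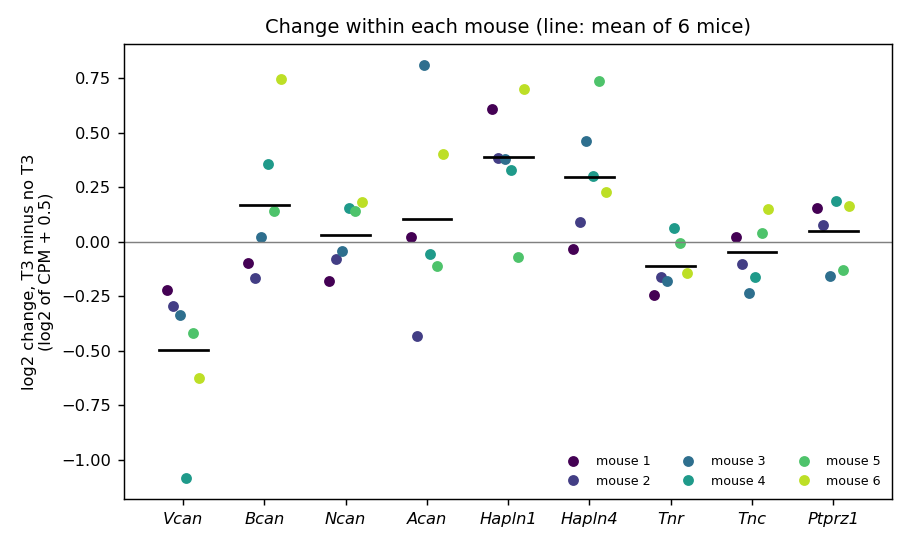
Log2 change within each mouse (T3 minus no T3, of CPM + 0.5) for the 9 genes, 1 point per mouse, with the mean of 6 mice as a line. All 6 points of Vcan lie below 0, down to -1.08 in mouse 4, and 5 of the 6 points of Hapln1 lie above it.

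The other 3 lectican genes did not pass the test, and whether their changes differed from that of Vcan was tested separately in pairs. Ncan encodes neurocan, a lectican secreted in the developing brain, and was the most abundant of the group. It went from 732.9 ± 99.0 to 743.3 ± 41.8 CPM (n = 6), with a log2 change of 0.029 (SE 0.052, limma adjusted p = 0.84), higher in 3 mice and lower in 3. Its range was 602.8 to 874.2 CPM without T3 and 670.8 to 787.7 with T3, which lies inside the first.

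Bcan encodes brevican, a lectican of the mature brain matrix. It ran from 80.8 to 217.0 CPM without T3, with a median of 143.0, and from 135.8 to 203.0 with T3, with a median of 149.6. The log2 change was 0.17 (SE 0.11, limma adjusted p = 0.503), higher in 4 of 6 mice. Mouse 6, which had the lowest Bcan without T3, had the largest change, 0.75, and the other mice lay between -0.17 and 0.36. Mouse 1 had the highest Bcan in either group.

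Acan encodes aggrecan, the lectican most closely tied to perineuronal nets. It was low in these cultures, with 16 to 50 reads per library, at 2.99 ± 0.608 CPM without and 3.32 ± 0.978 with T3 (n = 6). The log2 change was 0.11 with an SE of 0.17 (limma adjusted p = 0.819), and 3 of 6 mice were higher. Of the genes that mark the neurons carrying such nets, Pvalb is not among the genes of the table used here.

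Hapln4 encodes a link protein known from perineuronal nets. It had 5 to 20 reads per library, 0.937 ± 0.237 CPM without and 1.28 ± 0.399 with T3 (n = 6), and was higher with T3 in 5 of 6 mice. Of 3 reads, the limit that a count of 0 allows, the equivalent was 0.273 to 0.557 CPM, counting error only. Hapln3, a link protein gene beside Acan that is no member of the list, had 5 to 19 reads and a log2 change of 0.11 (SE 0.20, limma adjusted p = 0.835).

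The tenascins and the phosphatase gene did not pass the test. Tnr encodes tenascin-R, which crosslinks lecticans in nets. It went from 66.4 ± 12.6 to 61.4 ± 12.2 CPM (n = 6) and was lower in 5 of 6 mice. The log2 change was -0.11 (SE 0.059, unadjusted p = 0.0678, limma adjusted p = 0.335). Mouse 6 was the highest for Tnr in both groups and mouse 1 the lowest with T3. Tnc encodes tenascin-C, made by radial glia and young astrocytes, and ran from 107.8 to 162.4 CPM without and from 110.8 to 164.6 with T3. Its log2 change was -0.049 (SE 0.056, limma adjusted p = 0.732), with 3 mice higher and 3 lower. Ptprz1 ran from 508.0 to 748.2 CPM without and from 534.0 to 804.4 with T3, a log2 change of 0.050 (SE 0.053, limma adjusted p = 0.70). A p above the threshold does not show that these levels were equal.

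Levels of different genes were compared per kb of exons, since a longer transcript gives more reads. Without T3 the order was Ncan with 101.9 ± 13.8 CPM per kb, Ptprz1 with 43.0 ± 7.18, Bcan with 35.4 ± 11.6 and Tnc with 17.1 ± 2.80 (n = 6). Then came Vcan with 5.79 ± 1.55, Hapln1 with 5.44 ± 1.79 and Tnr with 5.16 ± 0.982, and last Acan with 0.401 ± 0.0813 and Hapln4 with 0.239 ± 0.0603 (n = 6). The ranges of the neighbours Ptprz1 and Bcan, Bcan and Tnc, Vcan and Hapln1, and Hapln1 and Tnr overlapped, although Bcan exceeded Tnc within 6 of 6 libraries. Ncan lay above Ptprz1, Tnc above Vcan, Tnr above Acan and Acan above Hapln4 with no overlap. With T3 the mean of Vcan was 4.03 ± 0.741 CPM per kb and that of Hapln1 6.96 ± 1.17 (n = 6). The exon length is the union over all annotated transcripts, and Vcan has long exons that its splice forms skip, so its value per kb depends on which forms were present.

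**Figure D3:**
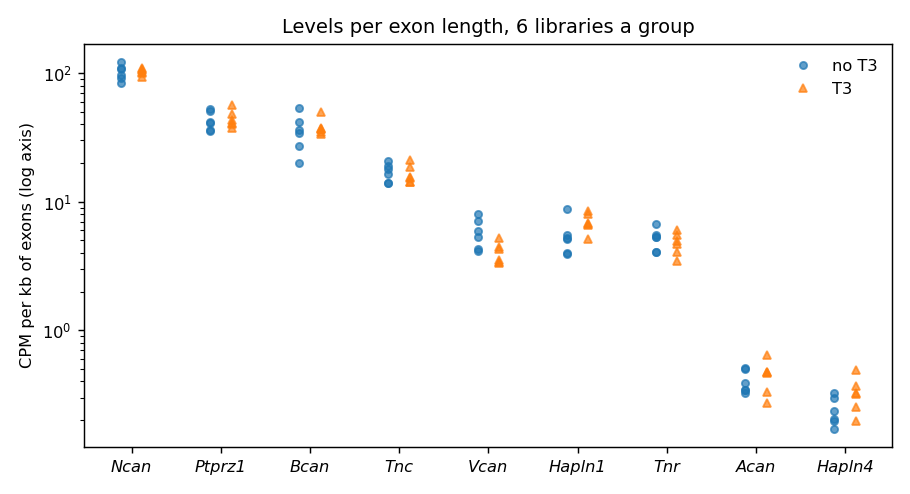
Level of each gene in CPM per kb of exons, on a log axis, in order of the mean without T3, with 6 libraries per group. Ncan is highest at 101.9 and Acan (0.401) and Hapln4 (0.239) are lowest, and Vcan, Hapln1 and Tnr lie close together.

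Whether the changes of 2 genes differed was tested within mice, by an exact two-sided sign-flip permutation test on the difference of their log2 changes. Of 10 pairs listed for this, among the lecticans and between each lectican gene and the link protein gene beside it, 8 could be tested. With 6 mice the smallest p this test can give is 0.03125. Vcan fell relative to Hapln1 in 6 of 6 mice, by -0.88 ± 0.41 (SD, n = 6) on the log2 scale, from -1.41 to -0.35 (exact permutation p = 0.03125). Vcan also fell relative to Bcan in 6 of 6 mice, by -0.66 ± 0.60 (SD, n = 6, exact permutation p = 0.03125), and relative to Ncan in 6 of 6, by -0.53 ± 0.44 (SD, n = 6, exact permutation p = 0.03125). Adjusted over the 8 pairs these 3 values became 0.0833, which does not pass. The difference between Vcan and Acan was -0.60 ± 0.53 (SD, n = 6, exact permutation p = 0.0625), lower in 5 of 6 mice. The remaining pairs, Bcan with Ncan, Bcan with Acan, Ncan with Acan and Acan with Hapln3, gave exact permutation p-values from 0.188 to 0.969.

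In the CPM themselves the ratio of Vcan to Hapln1 went from 2.81 ± 1.16 without T3, between 1.65 and 4.91, to 1.45 ± 0.323 with T3, between 1.08 and 1.94 (n = 6). It was highest in mouse 6 in both groups. Among the reads of the 4 lecticans, Vcan took 9.00% ± 3.27 without and 6.07% ± 1.02 with T3 (SD, n = 6), while Ncan took 76.0% ± 2.00 and 77.4% ± 1.44 (SD, n = 6). These shares are not corrected for length. Both a ratio and a share come from within 1 library and do not depend on how libraries were scaled.

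**Figure D4:**
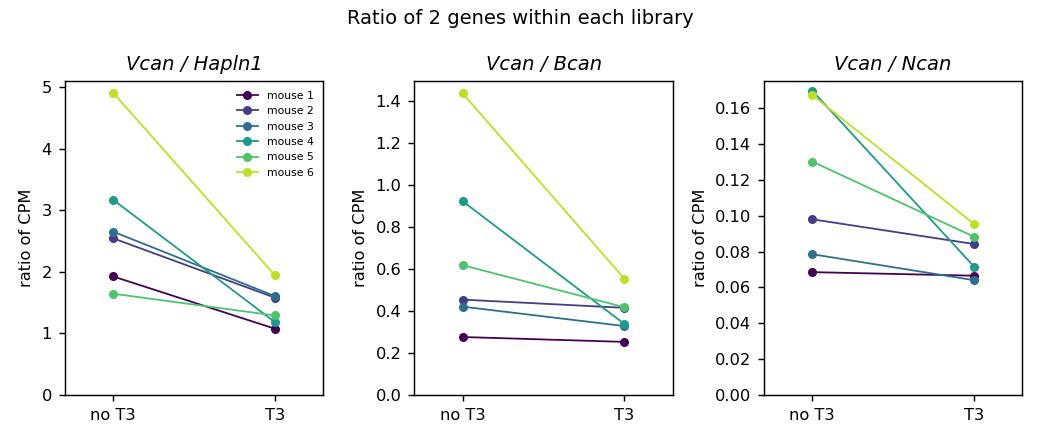
Ratio of the CPM of Vcan to that of Hapln1, Bcan and Ncan within each library, from 0, with a line for each mouse. The ratio falls with T3 in all 6 mice for all 3 partners; for Hapln1 the mean goes from 2.81 to 1.45.

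The genes whose pattern over the 12 libraries was most like that of the changed members were found by the root mean square difference of their centred log2 values, among 10576 genes whose log2 values averaged 3 or more. For Vcan these were Thsd7a (difference 0.18), Gm12470 (0.20) and Cdk19 (0.21), where the spread of Vcan itself was 0.39. Thsd7a went from 98.2 ± 29.1 to 65.3 ± 10.1 CPM, Gm12470 from 15.2 ± 2.22 to 12.2 ± 2.14 and Cdk19 from 101.1 ± 19.2 to 81.7 ± 12.1 (n = 6). For Hapln1 they were Steap2 (0.20), Hlf (0.20) and Pgm2 (0.21), against a spread of 0.37. Steap2 went from 14.6 ± 2.05 to 18.6 ± 2.65 CPM, Hlf from 14.3 ± 2.84 to 22.1 ± 2.71 and Pgm2 from 11.4 ± 1.77 to 14.2 ± 2.38 (n = 6). These 6 genes were picked by the same values, T3 change included, so their differences are given as a description, with no test.

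The wider pathway was read from 6 lists with 91 genes: other link proteins and tenascins, hyaluronan, chondroitin sulfate chains, matrix proteases with their inhibitors, receptors and partners, and other proteoglycans. Of 79 tested members 8 rose and 4 fell, which is 15.2% beside the 5.52% of all genes. Their median log2 change was -0.0085, since 38 lay above and 41 below 0. The share counts genes that were chosen with earlier results known and has no test.

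Enzymes that build the sugar part of the matrix were among those that moved. Has3, a hyaluronan synthase, went from 17.7 ± 3.50 to 30.4 ± 3.97 CPM (n = 6), and its log2 change was 0.77 (SE 0.082, limma adjusted p = 3.50e-06), higher in 6 of 6. It was the only 1 of 8 tested hyaluronan genes to pass, and Has2 was too low to test. Next by p in that list was Cemip, which takes part in hyaluronan breakdown, with a log2 change of -0.18 (limma adjusted p = 0.179). Of 22 genes for chondroitin sulfate chains 2 rose and 1 fell. Ust, which adds sulfate to the uronic acid of the chain, rose from 51.2 ± 8.30 to 77.7 ± 12.5 CPM (n = 6, log2 change 0.60, limma adjusted p = 1.02e-06). Chst11, which sulfates the galactosamine, rose from 120.0 ± 3.34 to 146.3 ± 5.17 CPM (n = 6, log2 change 0.28, limma adjusted p = 0.000888). Chst15, which adds a further sulfate to that sugar, fell from 39.1 ± 2.32 to 32.2 ± 3.87 CPM (n = 6, log2 change -0.28, limma adjusted p = 0.015), a call lost without mouse 3 or 6 and with DESeq2 (adjusted p = 0.0509).

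Of 17 proteases and inhibitors 1 rose and 1 fell. Mmp17, a membrane-anchored metalloproteinase, went from 64.4 ± 8.63 to 105.3 ± 15.1 CPM (n = 6), and its log2 change was 0.70 (SE 0.061, limma adjusted p = 2.76e-07), higher in 6 of 6. Adamts1, a protease that cuts versican and aggrecan, fell by 0.24 on the log2 scale (limma adjusted p = 0.0457), in 6 of 6 mice, but did not pass when mouse 1, 2, 3, 4 or 5 was left out or with DESeq2 (adjusted p = 0.138). The other tested Adamts genes of the list did not pass. Adamts5 stood at 0.27, Adamts20 at 0.10, Adamts8 at -0.055, Adamts9 at -0.10, Adamts4 at -0.17 and Adamts15 at -0.21.

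Of 23 receptors and partners 2 rose and 1 fell. Sema3a, a guidance cue that binds the chondroitin sulfate of nets, fell from 21.4 ± 3.56 to 16.2 ± 3.59 CPM (n = 6, log2 change -0.40, limma adjusted p = 0.00827). Nfasc, an adhesion molecule of axons, rose by 0.23 (limma adjusted p = 0.0134, call lost without mouse 4 or 5). Itgav, an integrin chain, rose by 0.21 (limma adjusted p = 0.0381), a call lost without mouse 1, 2, 3, 4 or 6 and with DESeq2 (adjusted p = 0.111). Among 8 other proteoglycan genes the testican genes Spock1 (log2 change 0.33) and Spock3 (0.23) rose and Dcn, a small proteoglycan of fibroblasts, fell (-0.47). The call of Spock3 was lost without mouse 1, 2, 3, 4 or 6 and with DESeq2 (adjusted p = 0.0844), and that of Dcn without mouse 3. Without mouse 4 the log2 change of Dcn was -0.38. Dcn is also a marker of fibroblasts, whose summed markers were highest in the library of mouse 4 without T3, and the part of those cells was not tested.

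**Figure D5:**
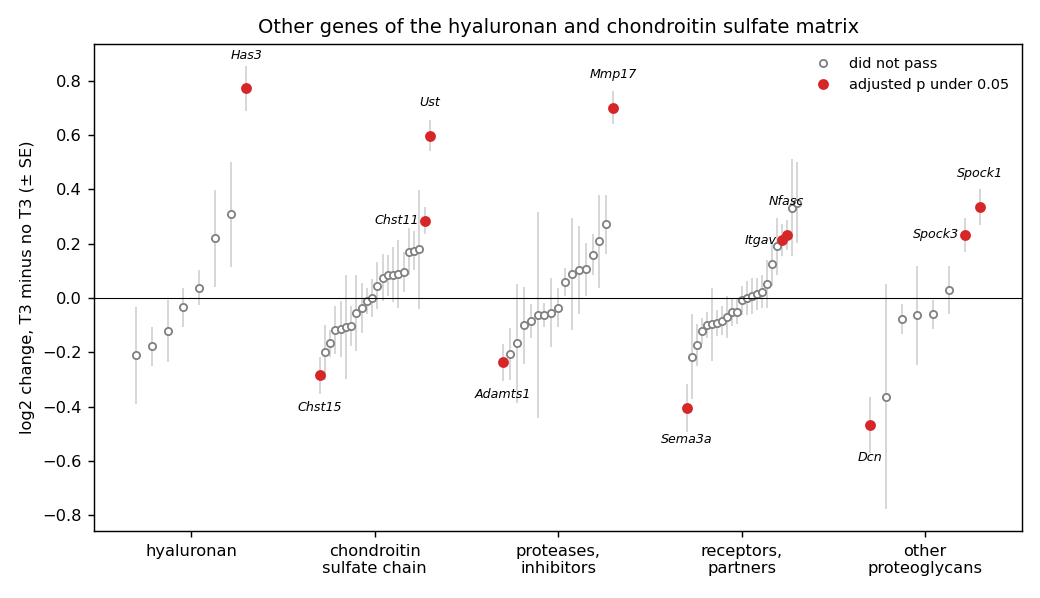
Log2 change (T3 minus no T3, ± SE) of the tested genes of 5 pathway lists, sorted within each list, with red points for limma's adjusted p below 0.05. Has3 (0.77), Mmp17 (0.70) and Ust (0.60) are the highest points and Dcn (-0.47) and Sema3a (-0.40) the lowest of those that passed.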

How the data were processed

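The authors deposited 1 table for the series and 1 file per library. Per the file headers and names the values are counts per gene scaled by TMM, a normalized signal whose columns sum to 969044 to 1044783, read here as CPM. The submitters' processing notes list CASAVA, FastQC, Bowtie, TopHat, HTSeq, edgeR and GRCm38, with no version of any tool. Table and single files differed by at most 5.09e-11. Dividing a column by what 1 read is worth gave whole numbers, within 0.01 reads, for 100% of the values in all 12 columns, so reads were recovered. Of 14801 identifiers 14648 had a symbol.

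The test was limma 3.58.1 (R 4.3.3) on log2(value + 0.5) with the mouse as a block, a variance trend and robust estimation, over 13663 genes kept by filterByExpr of edgeR 4.0.16. This scale understates changes of low genes. Two-sided p-values were adjusted after Benjamini and Hochberg, with a threshold of 0.05. On the recovered reads edgeR's quasi-likelihood test called 782 genes, DESeq2 1.42.0 called 522 and limma-voom 798, beside the 754 of limma. The series' design states that 1 fetus supplied both cultures, and the cultures of a mouse deviated together from their group means (correlation 0.237 to 0.638). The best correlation with a culture of another mouse was 0.136 to 0.348, for each mouse below its own value. For mouse 5 the gap was small, with 0.397 against 0.348. Other scaling, filters and pseudocounts and leaving out each mouse were alternatives.

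The members and gene lists were chosen with earlier results of these data known. Named are the members, Hapln3, list genes past the threshold (or the 2 with the smallest p) and the 3 genes most like each changed member.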

Additional observations from a re-analysis of the deposited data

Results flagged for a closer look

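Among 30 sets of 6 values looked at (the level without T3, the level with T3 and the log2 change of the 9 matrix genes and Hapln3), 2 held a value far from the other 5, and chance gives this in about 1 set in 20. Bcan stood at 203.0 CPM in the T3 culture of mouse 1, where the next highest was 153.4. Hapln1 stood at 52.2 CPM in the culture of mouse 5 without T3, where the next highest was 32.3. Mouse 1 also had the highest Bcan without T3, at 217.0 CPM, and mouse 5 the highest Hapln1 with T3, at 49.7 CPM.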

How the results depend on the processing

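Over 16 alternative settings the fall of Vcan kept its direction and passed in 14, with log2 changes from -0.55 to -0.38, and so did the rise of Hapln1, from 0.33 to 0.48. With no replicate block, that is without the pairing of cultures by mouse, 178 genes were called in place of 754, no member in place of 2 and 5 pathway genes in place of 12. Of the 8 pairs, Vcan with Bcan (exact permutation p = 0.115) and Vcan with Ncan (p = 0.0736) then no longer passed unadjusted, and Vcan with Acan did (p = 0.0281). In limma without trend and robust estimation 337 genes, 0 members and 4 pathway genes were called. Leaving out 1 mouse gave 459 (without mouse 3) to 854 genes and 7 (without mouse 3) to 11 pathway genes, and 2 members each time. Values near 0 changed sign: leaving out 1 mouse, the log2 change of Ncan ran from -0.0017 (without mouse 6) to 0.071 and that of Acan from -0.034 (without mouse 3) to 0.21, and the difference of Ncan and Acan from -0.16 to 0.078, of Bcan and Acan from -0.0098 to 0.23 and of Acan and Hapln3 from -0.13 to 0.10. With a pseudocount of 1 the last was 0.014. The cause was not tested. A p for pairs without 1 mouse was not run, since 5 mice cannot reach the threshold. Depth limits Acan, Hapln4 and Hapln3, with at most 50 reads per library.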

Other observations

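A list was drawn up for the inhibitory neurons that carry perineuronal nets. Whether its genes come from those neurons in these cultures was not tested, and Pvalb is not among the genes of the table. Of its 8 tested genes 2 fell and none rose, beside 2.14% of all genes that fell and 3.37% that rose. The log2 change was above 0 for 4 and below 0 for 4, with a median of -0.0071. Kcnc2, a fast potassium channel gene, went from 32.3 ± 3.51 to 25.9 ± 2.35 CPM (n = 6, log2 change -0.31, limma adjusted p = 0.01) and Erbb4, a neuregulin receptor gene, from 266.0 ± 39.5 to 231.3 ± 39.0 (n = 6, log2 change -0.21, limma adjusted p = 0.0338), each lower in 6 of 6 mice. The call of Kcnc2 was lost without mouse 3 and that of Erbb4 without mouse 3, 4 or 5. Those above 0 did not pass: Kcnc1 at 0.20 (limma adjusted p = 0.0881), Gad2 at 0.17 (0.0878), Nptx2 at 0.27 (0.231) and Otx2 at 0.52 (0.171). Kcnc1 and Otx2 were higher in 6 of 6 mice. Below 0 and also not past the threshold were Gad1 at -0.19 (limma adjusted p = 0.0735), lower in 5 of 6 mice, and Kcns3 at -0.29 (0.487). Gad1 had the highest level of the list, going from 344.2 ± 16.3 to 303.5 ± 35.2 CPM (n = 6), and so weighs most in the sum. The summed level of all 8 genes was higher with T3 in 1 of 6 mice.

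Among 9 tested neuron markers Rbfox3 rose by 0.27 and the vesicular glutamate transporter gene Slc17a6 fell by 0.27 on the log2 scale. Of 5 tested oligodendrocyte markers 1 passed, Ugt8a, an enzyme of myelin lipid synthesis, which rose by 0.62. The log2 change was -0.11 for Mbp and -0.35 for Mog, which did not pass. Of 7 tested progenitor markers 1 passed, Prom1, which rose by 0.29, while Vim stood at -0.13 and Hes5 at -0.10. Of 6 tested cell cycle genes Mcm2 and Mcm5 fell by 0.35 and 0.38, and none rose. Mki67 at -0.79, Cdk1 at -0.64, Top2a at -0.51 and Ccnb1 at -0.28 did not pass. Without mouse 4 Mki67 stood at -0.53 and passed (limma adjusted p = 0.0181), while Cdk1, Top2a and Ccnb1 did not. The summed cell cycle markers were lower with T3 in 6 of 6 mice. In mouse 4 that sum went from 225.3 CPM, the highest of all libraries, to 80.8. Calls were lost without mouse 3 or 4 for Rbfox3, without mouse 6 for Slc17a6, without mouse 1, 2, 3, 4 or 6 for Prom1, without mouse 1, 2 or 3 for Mcm2 and without mouse 3, 4 or 6 for Mcm5. DESeq2 did not call Prom1 (adjusted p = 0.138), Mcm2 (0.106) or Mcm5 (0.108).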
